A study of Ovis aries with 26 samples.

Results

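Pancreatic polypeptide (PP) cells were taken from single-cell RNA-seq libraries of the sheep pancreas by the transcripts they held. A kept barcode (over 200 and under 6000 genes, and under 25% of its unique molecular identifiers, UMIs, from mitochondrial genes) counted as an endocrine cell with at least 3 UMIs of CHGA, a granule protein of endocrine cells, and at least 1 UMI of SCGN, INSM1 or ISL1. It counted as a PP cell when PPY, the gene of the hormone, was at 10000 CPM or more (counts per 1000000 UMIs of the cell) and stood higher than GCG (glucagon) and SST (somatostatin). By this rule 568 of the 79510 kept cells (0.714%), and of 109501 barcodes in all, were PP cells. They made up 6.81% of 8337 endocrine cells, beside 4450 alpha cells (led by GCG), 583 delta cells (led by SST) and 2735 endocrine cells with PPY, GCG and SST all under the threshold, called hormone-low cells here.

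The 26 libraries came from 23 fetuses and newborn lambs, and CFTR encodes the chloride channel whose loss causes cystic fibrosis. At 80 days of gestation there were 2 WT and 2 CFTR+/- fetuses, used jointly as controls, and 3 cloned CFTR-/- males. At 120 days there were 3 WT fetuses and 6 CFTR-/- fetuses, of which 4 were cloned males and 2 naturally bred female twins. At term there were 4 WT lambs and 3 CFTR-/- lambs, of which 2 were naturally bred females and 1 a cloned male. The clones descended from 1 edited male fibroblast line and are not separate genotypes, and 3 of the 80-day controls were triplets. WT donors 1 and 2 at 120 days bear animal numbers of the form used for litters, so they may be littermates. Of the WT fetuses at 120 days, donors 1 and 3 were males and donor 2 a female. The study used more than 1 version of the library kit and more than 1 enzyme preparation to free the cells. Which of them served each sample is not given, and their part in the results was not tested. The animal was the replicate. Gene counts from libraries of the same animal were summed, whereas its PP share was the mean of the shares in its libraries. Shares of the other endocrine classes were taken from the pooled cells of an animal.

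The PP cell is the islet cell that releases pancreatic polypeptide, a peptide of the same family as PYY and NPY. The hormone is known to slow pancreatic secretion and gut movement after a meal. In many mammals PP cells lie mainly in the part of the pancreas that grows from the ventral bud, so the place from which tissue is taken can set how many are captured. The study's account of its bulk RNA-seq places the dissection in the centre of the organ. The place for each single-cell sample is not given in the sources used here, and its part in the shares was not tested.

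Library depth ran from 7841217 to 171256169 UMIs, with 943 to 9543 kept cells per library. The deepest library, of WT donor 2 at term, held 13488 barcodes. This is more than the study's sample table gives, and the difference was not resolved. PPY was also found outside the gate. Over the 24 libraries with at least 20 endocrine cells, 0.890% to 66.4% of the cells outside the endocrine gate without a CHGA UMI held a PPY UMI (median 13.8%), but their median level lay at 0 to 64.2 CPM and their 95th percentile at no more than 1067 CPM. The threshold of 10000 CPM stood above that percentile in each of these 24 libraries, although single cells outside the gate also passed it, as given in the account of the CHGA minimum. CFTR itself did not check the labels. The assay counts the 3′ end, away from the edited exon, and kept cells of CFTR-/- animals held CFTR at 13.0 to 137 CPM against 6.94 to 38.9 CPM in controls. In PP cells CFTR was rare, with 18 of 568 cells (3.17%) holding a UMI, near the 3.60% of alpha and 4.12% of delta cells. Hormone-low cells had 7.13% and the cells outside the gate 17.5%, all with the cells of all animals pooled.

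The values that chose the PP cells are a description. PPY made up a median of 15.9% of a PP cell's UMIs, and in the cell with the most it made up 62.4%. Of the 568 cells, 357 (62.9%) held PPY at 100000 CPM or more, and 27 lay under 20000. These values pool the cells of all animals, and CFTR-/- donor 1 at term gave 162 of the 357. Over animals with at least 10 PP cells, the share at 100000 CPM or more ran from 23.1% to 92.0%, the highest in that lamb. The cells just inside the threshold held 10061, 10113 and 10159 CPM, and the endocrine cells just outside held 9930, 9914 and 9859. SCGN (secretagogin, a calcium sensor) was found in 568 of 568 cells, INSM1 (an endocrine transcription factor) in 440 (77.5%) and ISL1 (another) in 409 (72.0%). A PP cell held a median of 12210 UMIs in all, close to the 11735 of alpha cells, 11649 of delta cells and 11712 of hormone-low cells. Its median of 6 CHGA UMIs was the lowest of these classes, against 22 in alpha, 10 in delta and 15 in hormone-low cells.

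The CHGA minimum left out many cells with high PPY. Outside the gate lay 792 kept cells with PPY at 10000 CPM or more and above GCG and SST, of which 374 had no CHGA UMI and 416 had 1 or 2. Their median PPY was 244835 CPM at a median of 7584 UMIs, and 721 of them (91.0%) held SCGN, INSM1 or ISL1. Without the CHGA minimum 1289 cells would count as PP cells. With no minimum the total of endocrine cells was that of PP, alpha and delta cells alone, without hormone-low cells. Its endocrine shares below thus differ from those of the main rule in their total as well as in the gate.

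Hormones overlapped within cells. Of the 568 PP cells, 117 (20.6%) also held GCG at 10000 CPM or more, while 246 had no GCG UMI. SST at that level was found in 11 (1.94%), and 471 had no SST UMI. Conversely, 206 alpha cells and 10 delta cells held PPY at 10000 or more. Over all cells, PP cells with GCG had a median PPY of 71974 CPM and those low in GCG 217674, but CFTR-/- donor 1 at term, an animal of high PPY, gave 167 of the cells low in GCG and 9 of those with it. Within the 9 animals with at least 5 cells of both kinds, the median PPY was lower in the cells with GCG in 8, from 58487.9 against 60699.4 CPM in CFTR-/- donor 2 at term to 82601 against 291082 in donor 3. The cells with GCG held more UMIs in 5 of the 9 animals. The share of PP cells with GCG ran from 3.70% to 66.7% over the 12 animals with at least 10 PP cells.

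**Figure D1:**
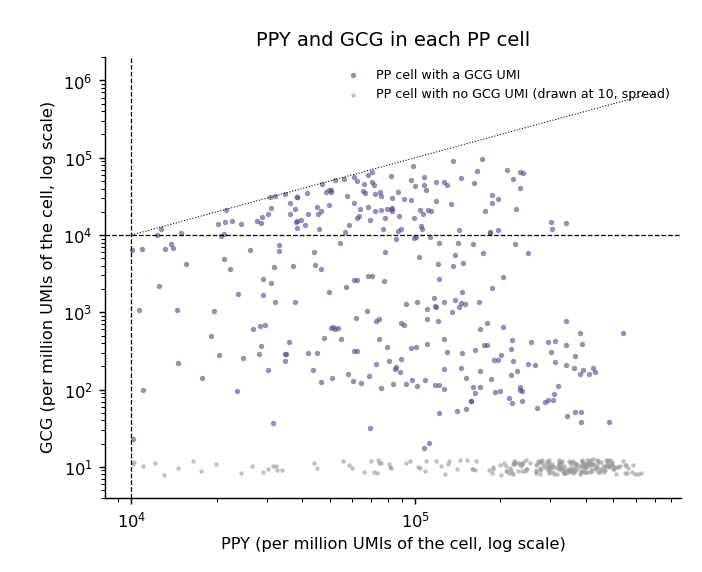
Level of PPY against GCG (CPM, log axes) in each PP cell, with the thresholds of 10000 CPM as dashed lines, equal levels as a dotted line and cells without a GCG UMI drawn spread at 10. Of the 568 cells, 117 lie at or above the GCG threshold and 246 have no GCG UMI, most of these at high PPY.

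The PP cells with GCG also held more of the other alpha cell genes. In 9 animals with at least 5 cells of both kinds, the summed level of the 20 alpha cell genes (GCG apart) had a median of 9646 CPM in PP cells with GCG, 4454 in PP cells low in GCG and 16521 in alpha cells. TTR (transthyretin, abundant in alpha cells) was at medians of 7391, 3038 and 14170 CPM, and both held this order within 9 of 9 animals. PYY did not differ in 1 direction between the kinds of PP cell, being higher with GCG in 5 of 9 animals, and was lowest in the alpha cells of 7. As GCG chose these groups, no test was made. A doublet score marked 39 PP cells (6.87%) as possible mixtures of more than 1 cell, against 3.96% of alpha and 9.26% of delta cells, and their part in the overlap was not tested.

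PP cells were scarce at 80 days in both genotypes. Their share of the endocrine cells was 0.592% and 0.813% in the WT fetuses, and 0% and 1.12% in the CFTR+/- fetuses. The CFTR+/- fetus without any had 0 of 232 endocrine cells, which allows a share of up to 1.29%. In the CFTR-/- fetuses the shares were 0.719%, 0.275% and 0.863%. The groups overlapped. The means were 0.631 ± 0.472% (SD, n = 4) in controls and 0.619 ± 0.307% (n = 3) in CFTR-/- fetuses (exact two-sided permutation test, p = 1), a difference of -0.0114 points. With at least 1 CHGA UMI the difference between CFTR-/- fetuses and controls was -0.417 points and with no CHGA minimum -0.610, neither of which passed the test.

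At 120 days the share of PP cells among the endocrine cells was higher in the CFTR-/- than in the WT fetuses, without overlap. WT fetuses had 0% (0 of 236 cells, which allows up to 1.27%), 1.12% and 1.74%. Cloned CFTR-/- fetuses had 8.45%, 13.9% and 10.0%, and the naturally bred twins 7.78% and 8.04%. The remaining clone, donor 3, had no endocrine cell among 943 kept cells and gave no value. Means were 0.953 ± 0.881% (n = 3) and 9.64 ± 2.54% (n = 5), a difference of 8.68 percentage points with an exact permutation p of 0.0357, the smallest that 3 against 5 animals can give. Adjusted over the 10 share tests, this exact p was 0.179 and did not pass.

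The difference at 120 days was present in both kinds of CFTR-/- fetus and its size moved with the gate. It was 9.83 percentage points for the clones alone and 6.96 for the twins alone. It came to 14.2 with at least 1 CHGA UMI, 5.27 with at least 5 CHGA UMIs and 4.09 with every cell thinned to 3000 UMIs. With no CHGA minimum, where hormone-low cells left the total, it came to 21.5. The difference was above 0 in each. The shares of the other endocrine classes overlapped between genotypes. Alpha cells made up 57.2% to 71.1% of the endocrine cells in WT and 53.8% to 77.2% in CFTR-/- fetuses, and delta cells 2.89% to 5.62% and 0.599% to 5.88%. Hormone-low cells were at 38.6%, 22.5% and 24.3% in WT, and at 33.0%, 24.3%, 13.0%, 14.4% and 11.4% in CFTR-/- fetuses, of which 3 lay under every WT value. As a share of all kept cells, PP cells were at 0.111 ± 0.149% (n = 3) in WT and 1.05 ± 0.892% (n = 6) in CFTR-/- fetuses (exact permutation p = 0.0952, adjusted 0.229), a difference of 0.940 points that came to 2.81 with no CHGA minimum, 0.484 with at least 5 CHGA UMIs and 0.304 thinned.

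At term the genotypes overlapped widely. The 3 WT lambs with at least 20 endocrine cells had 6.21%, 4.35% and 22.9% PP cells, and the CFTR-/- lambs 19.9%, 17.9% and 7.57%. The highest value was that of a WT lamb. Means were 11.1 ± 10.2% (n = 3) and 15.1 ± 6.62% (n = 3), with an exact permutation p of 0.7 where the smallest possible is 0.1. Of all kept cells, PP cells made up 0.444 ± 0.334% in WT (n = 4) and 1.23 ± 0.648% in CFTR-/- lambs (n = 3) (exact permutation p = 0.114, adjusted 0.229). With no CHGA minimum the difference at term was 10.8 points of endocrine cells, with hormone-low cells out of the total, against 3.98 by the main rule. It was 1.47 points of kept cells in place of 0.781. Thinned to 3000 UMIs, the differences were 2.31 points of endocrine and 0.412 points of kept cells. WT donor 1 had 1 endocrine cell, a PP cell, among 1082 kept cells and entered only the latter share.

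**Figure D2:**
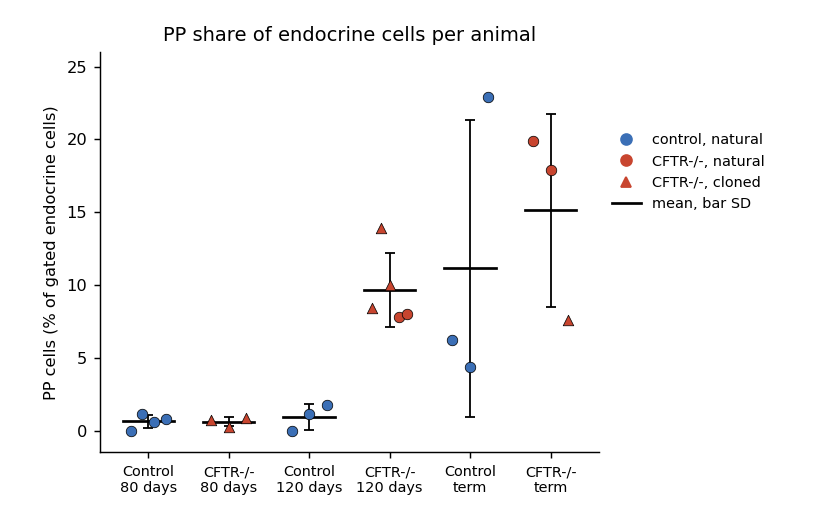
PP cells as a percentage of the gated endocrine cells of each animal, by age and genotype, with circles for naturally bred and triangles for cloned animals, lines for group means and bars for SDs. At 120 days the 5 CFTR-/- fetuses lie between 7.78% and 13.9% and the 3 WT fetuses between 0% and 1.74%, while at 80 days and at term the genotypes overlap.

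The mean share was higher at each later age in both genotypes, although no difference between ages passed the adjustment over the 10 share tests. From 80 to 120 days it was 9.02 percentage points higher in CFTR-/- fetuses, without overlap (exact permutation p = 0.0357, adjusted 0.179), and 0.323 points higher in controls (exact p = 0.514). From 120 days to term it was 10.2 points higher in controls, again without overlap (exact permutation p = 0.1, the smallest possible, adjusted 0.229), and 5.49 points higher in CFTR-/- animals, where the ages overlapped (exact permutation p = 0.214, adjusted 0.357). Without WT donor 4 at term the difference in controls fell to 4.32 points, and with clones alone that in CFTR-/- animals was -3.21 points, resting on 1 lamb at term. With no CHGA minimum, hormone-low cells also left the total. The differences from 80 to 120 days were then 25.6 points in CFTR-/- animals and 3.50 in controls. Those from 120 days to term were 7.67 and 18.4, and none passed the adjustment. Thinned to 3000 UMIs the differences at both steps were 3.97, -0.102, 4.62 and 6.4004 points in the same order. The difference between genotypes in endocrine share was 8.69 percentage points larger at 120 than at 80 days. Exact permutation of genotypes within each age gave p = 0.00918, adjusted over 6 such tests 0.0551. For kept cells it was 0.949 points larger (same permutation, p = 0.0952). Between term and 120 days the endocrine difference was 4.70 points smaller, and between term and 80 days 3.99 larger (same permutation, p = 0.558 and 0.681). None of these passed. The permutation assumes no genotype difference at either age. A difference at 1 age alone can thus make p small, so it cannot decide whether the difference changed with age.

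The amount of PPY within a PP cell varied widely within groups. In animals with at least 10 PP cells, the median PPY was 65930 CPM in the WT fetus at 120 days and 48778 to 168654 in 5 CFTR-/- fetuses. At term it was 97691, 110499 and 237556 in WT lambs, and 337465, 60662 and 217238 in CFTR-/- lambs. The lowest and the highest of the term values were both from CFTR-/- lambs. PPY chose the cells, so these levels are given without a test.

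**Figure D3:**
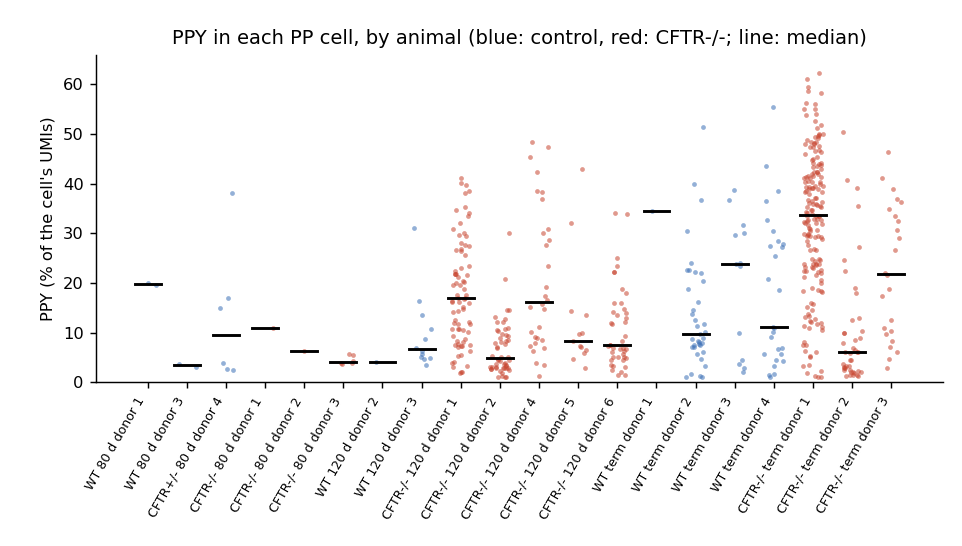
PPY as a percentage of the UMIs of each PP cell, for the 20 animals with PP cells, with a line at each animal's median. Cells of 1 animal spread widely, and the highest cell, of CFTR-/- donor 1 at term, reaches 62.4%.

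To find what else set PP cells apart, counts were summed per animal and class, and PP cells were compared with alpha, delta and hormone-low cells of the same animals. The animals were those with at least 10 cells of both classes, 8 CFTR-/- and 4 WT for alpha and hormone-low cells, and all but 1 of these for delta cells. The 7 genes of the gate were left out of totals and tests, so levels of single genes here are CPM outside the gate genes, scaled by the TMM factors of each fit. Sums of marker lists are, throughout, CPM outside the gate genes without that scaling. The 3 comparisons share the PP sums. Classes chosen by their hormones differ in genes tied to those hormones, so the counts describe the classes and are no test that they are separate types.

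PP cells held more ETV1, MEIS2 and PYY than alpha cells and less of several alpha cell regulators. Against alpha cells, 446 of 7259 genes (6.14%) were higher in PP cells and 455 (6.27%) lower, 12.4% in all (edgeR's quasi-likelihood test with the animal as a block, adjusted p of at most 0.05). Of the 23 PP cell genes known from human islets, 11 were tested, of which ETV1 and MEIS2 were higher, CARTPT was lower and 8 did not pass (median log2 difference 0.21, against 0.0062 over all genes tested). Of 13 tested alpha cell genes, 2 were higher, TM4SF4 among them, 6 lower and 5 did not pass (median -0.24).

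Among hormones, PYY, the closest relative of PPY, was higher in PP cells. Its level was 48.6 to 1328 CPM in PP cells (median 231) and 21.4 to 883 in alpha cells (median 92.0), higher in PP cells of 10 of 12 animals, with a log2 difference of 1.41 ± 0.34 (SE, adjusted p = 0.00692). The ranges overlapped widely. A PYY UMI was found in 57.9% of PP cells, 30.5% of alpha, 4.12% of delta and 5.12% of hormone-low cells, and in 0.881% of cells outside the gate. These shares, and those of GAST below, pool the cells of all animals. CFTR-/- donor 1 at term, with the highest PYY level in PP cells, gave 176 of the 568 PP cells but 115 of the 4450 alpha cells. How far this animal moved the pooled shares was not tested. Whether reads of the related genes PPY and PYY could be exchanged was not tested. GAST (gastrin, the hormone of gastric acid secretion) was at 8.09 to 165 CPM in PP and 1.69 to 50.9 in alpha cells, higher in 11 of 12 animals (log2 difference 1.98 ± 0.30, adjusted p = 6.51e-05). A GAST UMI was found in 16.9% of PP cells, 4.18% of alpha cells and 1.33% of cells outside the gate. CARTPT, the precursor of the peptide CART, was lower in PP than in alpha cells, with medians of 516 and 872 CPM (-0.72 ± 0.13, adjusted p = 0.000595).

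Some transcription factors were higher and others lower in PP cells. ETV1, an ETS factor known from human PP cells, was at 275 to 1176 CPM in PP cells and 276 to 586 in alpha cells (0.51 ± 0.09, adjusted p = 0.000481). MEIS2, a homeobox factor, was at medians of 77.1 and 22.1 CPM and higher in PP cells of 12 of 12 animals (1.56 ± 0.16, adjusted p = 8.05e-07). IRX2, an alpha cell homeobox factor, was lower without overlap, with 14.1 to 125 CPM in PP cells and 129 to 259 in alpha cells (-1.43 ± 0.17, adjusted p = 5.54e-06). Its relative IRX1 was lower too, at medians of 4.32 and 44.1 CPM (-2.44 ± 0.36). RFX6, needed for islet formation, was lower in 12 of 12 animals, at medians of 34.95 and 79.5 CPM (-1.46 ± 0.20), and FEV, a factor of endocrine precursors, at medians of 31.3 and 72.1 CPM (-0.89 ± 0.16). Of 22 tested islet transcription factors in all, 3 were higher, 5 lower and 14 did not pass. In the animals of term alone, ETV1, PYY and CARTPT kept their direction against alpha cells but were not called.

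**Figure D4:**
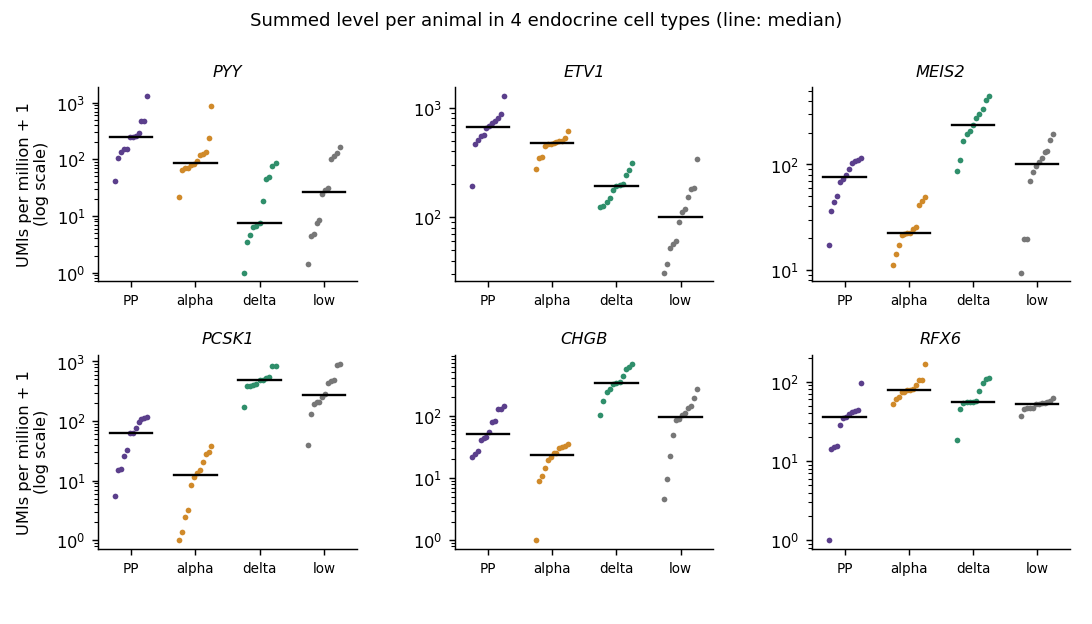
Levels of PYY, ETV1, MEIS2, PCSK1, CHGB and RFX6 (CPM outside the gate genes plus 1, before TMM scaling, log axis) in summed PP, alpha, delta and hormone-low (low) cells, a point for each animal and a line at the median. PP cells have the highest median of PYY and ETV1 and the lowest of RFX6, and lie between alpha and delta cells for MEIS2, PCSK1 and CHGB.

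A few granule genes differed. PCSK1, a prohormone convertase, was at medians of 68.6 CPM in PP and 11.4 in alpha cells and higher in 11 of 12 animals (2.14 ± 0.29, adjusted p = 1.91e-05), whereas PCSK2, the convertase that makes glucagon, was lower (-0.38 ± 0.09, adjusted p = 0.00743). CHGB (chromogranin B) was at medians of 60.8 and 22.6 CPM (1.68 ± 0.21). Of 25 tested granule genes, 3 were higher, 4 lower and 18 did not pass. Of 5 tested receptor genes, 3 were lower in PP than in alpha cells and 2 did not pass. GPR119, a receptor for lipid signals, was at medians of 139 CPM in PP and 443 in alpha cells (-1.86 ± 0.25), SSTR2, a somatostatin receptor, at 16.2 and 30.4 (-0.85 ± 0.21) and GIPR, the receptor of the incretin GIP, at 13.4 and 32.9 (-1.10 ± 0.17). Of 15 tested ion channels, KCNK16, a background potassium channel of islets, was higher (medians of 665 and 428 CPM, 0.83 ± 0.08), and SCN9A, SCN3A and CACNA1D, sodium and calcium channels, were lower.

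Among called genes that moved alike in all 12 animals and reached a mean of 50 CPM, the highest log2 difference from alpha cells lay in a gene known by identifier only. LOC101107984 was at 24.3 to 319 CPM in PP cells and 0 to 13.8 in alpha cells, higher in 12 of 12 animals without overlap (5.58 ± 0.39, adjusted p = 3.87e-09). SFRP1, a secreted Wnt inhibitor, did not overlap either, with 59.3 to 157 CPM against 0 to 56.7 (2.13 ± 0.28). MDK (midkine, a growth factor) and ANXA10 (an annexin) were higher in 12 of 12 animals, by 2.30 ± 0.23 and 2.07 ± 0.29. Lower in 12 of 12 animals were GAP43 (a growth cone protein, -2.58 ± 0.30) and TTR, at medians of 5572 against 14805 CPM (-1.82 ± 0.14), and lower in 11 of 12 was CRYBA2, a crystallin of endocrine cells from the alpha cell list (-2.72 ± 0.35). CPB1, an acinar enzyme, was higher in PP cells of 11 of 12 animals (1.57 ± 0.27). The 12 measured acinar markers together had a median of 4575 CPM in PP cells (492 to 31960) and 2781 in alpha cells (489 to 25890), with none of the markers at 0, and their part in the result was not tested. Without the 117 cells rich in GCG and the 11 rich in SST, 866 genes were called against alpha cells in place of 901.

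Against delta cells, PP cells differed by 268 of 3811 genes that were higher (7.03%) and 224 that were lower (5.88%), 12.9% in all. By the same rule the largest difference upward was PYY, at 109 to 1469 CPM in PP cells and 0 to 89.9 in delta cells (4.12 ± 0.46, adjusted p = 1.51e-06), without overlap. DPP4, a peptidase that trims incretins and PYY, was at medians of 213 and 30.0 CPM (3.34 ± 0.37), and TAAR1, a trace amine receptor, at 298 and 32.0 (3.04 ± 0.24). SERPINA1, the protease inhibitor alpha-1 antitrypsin, was at medians of 506 and 89.9 CPM (2.75 ± 0.21). ETV1 was higher in 11 of 11 animals (1.79 ± 0.13), and GPR119 and IRX2, lower against alpha cells, were higher against delta cells (1.73 ± 0.24 and 1.66 ± 0.31).

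Several genes of delta cells were low or near 0 in PP cells. HHEX, the delta cell transcription factor, was at 0 to 31.0 CPM in PP and 157 to 559 in delta cells (-5.14 ± 0.26, adjusted p = 1.71e-11). RBP4, a retinol carrier, was at medians of 67.2 and 4805 CPM (-6.20 ± 0.38). The calcium-sensing receptor CASR was at 0 to 7.15 against 37.8 to 116 CPM (-5.62 ± 0.30) and the secretin receptor SCTR at 0 to 13.0 against 65.3 to 246 CPM (-4.71 ± 0.27). None of these overlapped. Of 7 tested delta cell genes, 5 were lower and 2 did not pass (median -3.10, against 0.0085 over all genes). PCSK1 and CHGB, higher in PP than in alpha cells, were lower than in delta cells, by -3.01 ± 0.24 and -2.42 ± 0.17. MEIS2 followed the same order (-1.88 ± 0.19 against delta cells), and RFX6 (-1.16 ± 0.22) was lower here too. The genes FOS, JUN, JUNB, ATF3 and IER2 of 12 tested stress and dissociation genes were higher in PP cells, whose summed stress level was 5408 to 26209 CPM against 5073 to 22452 in delta cells, and its part in the result was not tested.

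Against hormone-low cells, 381 of 5112 genes (7.45%) were higher in PP cells and 425 (8.31%) lower, 15.8% in all. CPN1, a carboxypeptidase subunit, was at 27.5 to 230 CPM in PP cells and 1.77 to 25.2 in hormone-low cells, without overlap (3.11 ± 0.35, adjusted p = 1.33e-05). PYY (2.68 ± 0.66) and ETV1 (2.48 ± 0.30) were higher in 12 of 12 animals. CARTPT was at medians of 480 and 155 CPM (2.10 ± 0.34), so that PP cells lay between alpha and hormone-low cells for this peptide. Among granule genes, the higher ones included SCG2 (secretogranin II) at medians of 486 and 252 CPM (1.05 ± 0.16) and PAM, the enzyme that amidates peptides such as pancreatic polypeptide, at 137 and 89.4 CPM (0.83 ± 0.15). In all, 6 of 22 tested granule genes were higher, 2 lower and 14 did not pass (median 0.18, against 0.00055 over all genes).

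Lower than in hormone-low cells were the neighbouring imprinted genes DLK1, a Notch-like surface protein, and GTL2, a noncoding RNA. DLK1 was at 0 to 208 CPM in PP cells and 3.97 to 4213 in hormone-low cells, lower in 12 of 12 animals (-5.84 ± 0.66, adjusted p = 1.34e-05), and GTL2 at medians of 30.6 and 228 CPM (-3.09 ± 0.38). Of 4 tested beta cell genes, 3 were lower in PP cells, DLK1 among them, and 1, NPTX2, was higher (median -1.65). HADH, a fatty acid oxidation enzyme, and ERO1B, an oxidase of the islet endoplasmic reticulum, were lower by -2.17 ± 0.28 and -1.13 ± 0.19. INS was not analysed here, so beta cells could not be set apart from other hormone-low cells. RFX6 (-0.94 ± 0.22) was lower in PP cells against this class as well. The intermediate filament gene VIM was at medians of 81.2 and 318 CPM (-2.59 ± 0.34). Of 11 tested acinar markers 10 were lower in PP cells, and their summed level had medians of 4575 CPM in PP and 23620 CPM in hormone-low cells, so acinar RNA moved with this comparison and its part in it was not tested.

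The genes whose level followed PPY most closely over summed PP, alpha, delta and hormone-low cells (72 sums of animal and class, 7839 genes ranked) included both factors and enzymes. CHST2, a sulfotransferase, led with a Spearman rho of 0.81, followed by NEDD9, a scaffold protein, with 0.74. ETV1, SERPINA1 and PYY each had 0.69, CPN1 0.68 and CAV2, a caveolin, 0.67. LOC105615127, DLG2 and ACSM3 completed the first 10 with 0.66, 0.64 and 0.63. Of the 72 sums, 12 were of PP cells, 21 of alpha, 18 of delta and 21 of hormone-low cells. PPY chose these classes, so the rho values follow that split in part and give the class comparisons no separate support. The sums also share animals and libraries, and the values are a description.

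With genotype, no gene in PP cells passed the test at term. Of 6782 genes, 0 (0%) were called between 3 CFTR-/- and 3 WT lambs (edgeR's quasi-likelihood test), 394 (5.81%) had an unadjusted p under 0.05, and the smallest adjusted p was 0.0968. DESeq2 called 3 genes, LOC101116336, GPC3 and GRASP, each lower in CFTR-/- lambs, and without the filter on low counts edgeR called 117. The summed acinar markers in these cells were at 2346, 25322 and 31960 CPM in WT and 492, 4299 and 9671 CPM in CFTR-/- lambs, and in the test above 11 of 11 acinar markers did not pass at a median log2 difference of -2.36. With at least 20 PP cells per animal edgeR called 13 genes, each lower in CFTR-/- lambs, among them the acinar markers CTRC, CPB1, PNLIPRP2, GP2 and AQP8. Their part in these values was not tested. At 120 days only 1 WT fetus had 10 PP cells or more, so no test was made. Without the CHGA minimum and with at least 5 cells, 5 CFTR-/- and 2 WT fetuses gave 0 calls among 8561 genes, with 439 genes at an unadjusted p under 0.05 and a smallest adjusted p of 0.898 (edgeR). At 80 days no animal had enough PP cells.

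Between 120 days and term, PP cells changed in a small set of genes. The 6 animals of 120 days (1 WT and 5 CFTR-/-, of which 3 were clones) were set against 6 of term (3 WT and 3 CFTR-/-, of which 1 was a clone), so age is mixed with genotype and breeding in part. Here levels are TMM-scaled CPM of all UMIs. At term 82 of 4012 genes (2.04%) were higher and 53 (1.32%) lower (edgeR's quasi-likelihood test, adjusted p of at most 0.05). Alpha cells from the same libraries, compared in the same way, had 321 of 9632 genes higher (3.33%) and 182 lower (1.89%). How many of the 4012 genes tested in PP cells had no overlap between ages is not given here. Lack of overlap in the single genes below is therefore a description.

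The genes FKBP5 and KLF9, both known as targets of glucocorticoid hormone, were higher at term without overlap. FKBP5 was at 14.4 to 32.2 CPM at 120 days (median 23.6) and at 34.99 to 364 CPM at term (median 227), a log2 difference of 3.50 ± 0.41 (SE, adjusted p = 0.000241). Within CFTR-/- animals it was at 14.4 to 26.3 and 159 to 364 CPM, whereas the WT fetus had 32.2 and the lowest WT lamb 34.99 CPM. KLF9 was at 0 to 19.0 and 49.0 to 150 CPM (2.81 ± 0.32, adjusted p = 0.000241). In alpha cells of the same libraries the log2 differences were 2.99 ± 0.38 for FKBP5 and 2.44 ± 0.34 for KLF9.

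CDKN1C and PEG10, imprinted genes of which CDKN1C encodes a brake on the cell cycle, were lower at term. CDKN1C was at 82.5 to 173 CPM at 120 days and 11.7 to 43.8 CPM at term (-2.60 ± 0.31, adjusted p = 0.000241), without overlap. At term it was at 11.7, 17.7 and 14.5 CPM in CFTR-/- and 43.8, 34.99 and 38.4 CPM in WT lambs, a split noted after the values were seen and not called by the genotype test (log2 difference -1.53, adjusted p = 0.511, edgeR). PEG10 was at 178 to 515 and 21.7 to 112 CPM (-2.23 ± 0.33, adjusted p = 0.00127), also without overlap. In alpha cells CDKN1C differed by -1.66 ± 0.22 and PEG10 by -1.95 ± 0.29.

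**Figure D5:**
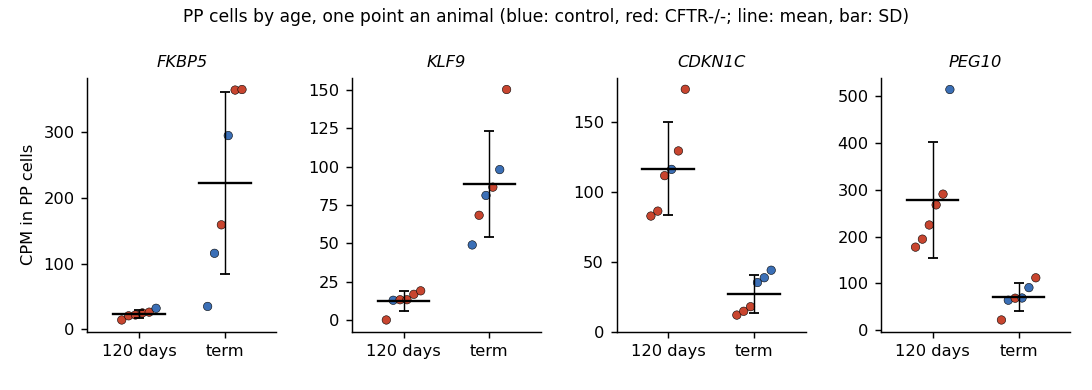
FKBP5, KLF9, CDKN1C and PEG10 in summed PP cells (CPM, linear axes), a point for each of 6 animals at 120 days and 6 at term, blue for WT and red for CFTR-/-, with lines for means and bars for SDs. FKBP5 and KLF9 are higher and CDKN1C and PEG10 lower at term, and in none of the 4 do the ages overlap. These 4 are the genes without overlap among the 5 largest called differences each way, so the lack of overlap follows from the choice.

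Other genes changed with more spread. DPP4 was at 227 to 380 CPM at 120 days and 38.4 to 166 at term, without overlap (-1.46 ± 0.31, adjusted p = 0.0165), and in alpha cells it differed by -0.46 ± 0.27 (adjusted p = 0.349, edgeR). Whether the change in DPP4 differs between the classes was not tested. PRSS23, a secreted protease, was at 18.4 to 64.9 and 70.0 to 207 CPM (1.86 ± 0.33). LOC101104563 was at 12.9 to 100 and 53.2 to 10541 CPM (6.20 ± 0.97) and FGG, a chain of fibrinogen, at 7.21 to 61.7 and 0 to 1990 CPM (4.16 ± 0.96), and in both the highest value belonged to CFTR-/- donor 1 at term. CFI, a complement regulator, was at medians of 32.0 and 126 CPM (2.62 ± 0.45). CHGA and PPY chose the cells, so their values are a description. CHGA was at medians of 495 and 1239 CPM (a log2 difference of 1.21), and PPY had a log2 difference of 0.96.

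Several heat shock genes were lower at term. Of 12 tested stress and dissociation genes, 4 were lower and 8 did not pass (median -0.28, against 0.0030 over all genes). HSP90AA1, a chaperone, was at 1377 to 8659 CPM at 120 days and 816 to 1979 at term (-2.06 ± 0.40, adjusted p = 0.00931), and HSPA8, HSPA1A and DNAJB1, chaperones and a cochaperone, differed by -1.39 ± 0.33, -2.43 ± 0.61 and -2.46 ± 0.65. HSPH1, which is not on that list, differed by -2.86 ± 0.70. Fetuses spread widely, with HSPH1 at 2261 CPM in CFTR-/- donor 2 and 72.1 in donor 5. The summed level of the stress list was 20514 CPM in the WT fetus, 5922 to 26209 CPM in CFTR-/- fetuses and 5408 to 11543 CPM at term, and its part in the differences with age was not tested. Leaving out CFTR-/- donor 1 at term, which gave 176 of the PP cells, reduced the calls between ages from 135 to 42, and leaving out CFTR-/- donor 1 or 2 at 120 days reduced them to 61 and 53. Without some single animals FGG, HSPH1, DNAJB1, HSPA1A, HSPA8 and DPP4 were not called.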

How the data were processed

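The authors aligned reads of 10x Genomics 3′ libraries to the sheep genome Oar_v4.0 with Cell Ranger 3.1.0 and deposited UMI counts per gene and barcode, without normalization. Here barcodes were filtered and classed as the report states. LOC identifiers were given symbols from a RefSeq table of another assembly (501 of 8432), used for names only. INS and some other genes are not reported here. The PP cells, lists and tests were chosen with earlier results of these data known. Counts were summed per animal and class (at least 10 cells) and tested with edgeR 4.0.16 in R 4.3.3 (TMM, filterByExpr, estimateDisp, glmQLFit and glmQLFTest, Benjamini-Hochberg adjustment over all genes tested). Scripts were tested on simulated data. Shares were compared by exact two-sided permutation of animals (scipy 1.17.1), for animals with at least 20 endocrine cells where these were the total. Clones share a genotype and littermates a dam, so p-values measure the spread between these animals, and limits from a count of 0 (3 counts) cover counting error only. Doublets were marked with Scrublet (scanpy 1.11.5), taking the highest scores up to 0.8% per 1000 barcodes, and kept except in an alternative. Kept barcodes shared by a pair of libraries numbered a median of 2 and at most 12, and none was a PP cell in both libraries. Alternatives changed the gate, the depth (thinning to 3000 UMIs), the scaling (RLE), the tool (DESeq2 1.42.0), the filters, the blocks and the animals. Named genes were those of the gate and of the fixed lists, and per comparison of classes the 10 largest differences each way among called genes that moved alike in every animal, with a mean of at least 50 CPM in the higher class (5 each way between ages).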

Additional observations from a re-analysis of the deposited data

Results flagged for a closer look

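In summed PP cells at term, LOC101104563 stood at 10541 CPM in CFTR-/- donor 1, far from the other 5 animals (group median 427 CPM). FGG stood at 1990 CPM in the same lamb, where the median of the 6 animals was 111 CPM. At 120 days KLF9 was at 0 CPM in CFTR-/- donor 5 (median 13.2) and PEG10 at 515 CPM in WT donor 3 (median 246), each flagged against the rest of the 6 fetuses. Donor 5 had 13 PP cells and its KLF9 value lies at the floor of the counts, where counting error was not set apart. These came from 37 groups of values examined, of which chance flags about 1 in 20.

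Outside the gate lay 792 kept cells with PPY at 10000 CPM or more and above GCG and SST, which the main comparisons do not use. The runs without a CHGA minimum took in the 721 of them with a UMI of SCGN, INSM1 or ISL1.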

How the results depend on the processing

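Differences in share at 80 days, near 0, changed sign with cells thinned to 3000 UMIs (0.0184 points of kept cells, 0.0201 of endocrine cells), without the highest doublet scores (0.0229 and 0.192) and with the donor number as a replicate block (0.0225 and 0.151). The control difference between 120 and 80 days turned to -0.102 when thinned. With the cloned CFTR-/- animals alone, the endocrine share differed by -3.57 points at term and by -3.21 from 120 days to term. With the donor block the share differences were 1.101 (kept) and 10.6 (endocrine) at 120 days and 0.932 and 7.47 at term. No share test passed its adjusted threshold under the alternatives that gave an adjusted p. The permutation p of the donor block was not adjusted and is not given here, and the clones at term, 1 lamb, gave no test. Leaving out single animals, the difference in kept share ran from -0.0578 to 0.0225 points at 80 days, 0.634 to 1.15 at 120 days and 0.454 to 1.102 at term, and that in endocrine share from -0.222 to 0.161, 7.61 to 9.14 and 0.581 to 9.85. By age the ranges were -0.0687 to 0.7996 (controls, 120 against 80 days), 4.32 (without WT donor 4) to 13.6 (controls, term against 120 days), 7.95 to 9.48 and 3.11 to 9.27 (the same steps in CFTR-/- animals). Calls then ran from 640 to 892 (alpha), 403 to 530 (delta), 640 to 955 (hormone-low), 0 to 3 (genotype at term, 3 without WT donor 3) and 42 to 163 (age). The animal block raised the calls, since without it 198 genes were called against alpha, 199 against delta and 356 against hormone-low cells in place of 901, 492 and 806. Without the CHGA minimum, an alternative chosen after seeing the data like the restriction to animals of a single age, there were 1716 (alpha), 938 (delta) and 308 (age) calls. Animals of 120 days alone gave 499 calls against alpha cells. Term animals alone gave 260, 241 and 174. Without the filter on low counts there were 1146 (delta), 1857 (hormone-low), 117 (genotype at term) and 540 (age). For genotype at term, DESeq2 called 3, a minimum of 20 PP cells 13 and a block for the donor number 23 (the acinar CLPS, SYCN, CELA1, PNLIPRP2 and DNASE1 among them, each lower in CFTR-/- lambs), and for age the donor block called 199 in place of 135. Donors 2 and 3 at term correlated in their deviations by 0.203 and 0.496 over 2246 genes, but shared numbers alone, so this pairing rests on no label. Apart from the alternatives' own construction, the cause was not tested. Of 2411 values of named genes under the alternatives, 2303 kept their direction and side of the threshold, 108 kept the direction without passing and 0 reversed. Many of these genes were named because they were called and moved alike in every animal. Of the 2411 values, 1294 came from leaving out single animals. The choice of genes thus favours few reversals, and genes that an alternative's filter removed were not counted. The run without a CHGA minimum could not be made for hormone-low cells. With 0 to 6 PP cells per animal at 80 days and 0, 1 and 12 in WT fetuses at 120 days, genotypes could not be compared there within PP cells by the main rule.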
